A study of Mus musculus with 16 samples.

Results

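The 9 genes described here mark, in the textbook account, neurons born in the caudal and lateral ganglionic eminences of the embryonic forebrain: Nr2f1, Nr2f2, Prox1, Htr3a, Meis2, Calb2, Sp8, Sp9 and Npas1. They were taken by symbol from a table of 24539 genes, with earlier results of these data known, and all 9 were present in it. The table held 16 libraries of laser-captured cells from mouse embryos of embryonic day 14.5, 4 in each of 4 groups. All dams were CD1 mice given a gavage every morning of gestational days 11 to 14, and all embryos were GAD67-GFP+/- and recorded as male, 1 from each litter. Dams of the cypermethrin stressed group received 10 mg/kg of alpha-cypermethrin, a pyrethroid insecticide, and were also restrained. Those of the cypermethrin non-stressed group received the same insecticide without restraint. Those of the vehicle stressed group received corn oil and were restrained, and those of the vehicle non-stressed group received corn oil alone. Restraint was under bright light in 3 sessions of 45 min on each of days 12 and 13, with a last round on day 14 that ended 15 min before euthanasia, while the last gavage was given 90 min before it. The GFP reporter marks GABAergic cells whichever eminence they come from, so the capture itself did not select the caudal or lateral lineage. About 1000 GFP-positive cells per embryo were cut from the cortical plate at the front of migration, in 10 sections of 10 µm of tissue that had been fixed in paraformaldehyde.

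Most cortical interneurons come from the medial and caudal ganglionic eminences and reach the cortex by tangential migration. The medial lineage is defined by the transcription factor gene Lhx6, while the caudal lineage arrives later and uses Nr2f2, Prox1 and Sp8, and its mature cells carry the serotonin receptor subunit encoded by Htr3a. The lateral eminence gives rise mainly to the projection neurons of the striatum, where Meis2 is expressed, and to interneurons of the olfactory bulb, which depend on Sp8 and Sp9 and many of which make calretinin, the product of Calb2.

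Total counts ran from 2291283 to 4324129 per library, with a median of 3695782, and the 9 genes together took 0.0254% to 0.0676% of them (median 0.0358%). Levels are given in CPM, counts divided by library sizes scaled with the TMM method. Of the 9 genes, 6 had enough counts to be tested (about 2.706 CPM in at least 4 libraries), and Prox1, Htr3a and Sp8 did not. The library labelled vehicle stressed replicate 1 went against its recorded sex: the X-inactivation transcript Xist had 4530 CPM in it and at most 8.14 CPM in the other 15, and 4 genes of the Y chromosome summed to 0.476 CPM in it and to at least 198 CPM in each of the others. The same capture held RNA of other cells. Summed markers of cortical glutamatergic neurons ran from 4480 to 7480 CPM, and those of Cajal-Retzius cells from 1750 to 3520 CPM. Those of meningeal fibroblasts and pericytes ran from 1380 to 4010 CPM, and those of GABAergic neurons from 482 to 972 CPM. Reln, which some interneurons also make, averaged 2260 CPM of a mean Cajal-Retzius sum of 2580 CPM. Fewer cells of a type and less RNA per cell cannot be told apart in such bulk libraries.

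Set against gene length, the 9 genes fell into an upper group of 6 and a lower group of 3. In CPM per kilobase of merged exons, Meis2 had the highest mean level, 14.3 ± 6.65, followed by Nr2f1 with 12.9 ± 4.87 and Nr2f2 with 10.2 ± 4.47 (SD, n = 16). Npas1 had 5.67 ± 2.76, Calb2 4.81 ± 4.28 and Sp9 4.62 ± 3.16 CPM per kilobase. Below them stood Sp8 with 0.24 ± 0.353, Prox1 with 0.132 ± 0.144 and Htr3a with 0.0295 ± 0.0696 CPM per kilobase. Neighbours in this order overlapped within their SDs, except Sp9 and Sp8: Sp9 was above Sp8 in 16 of 16 libraries and their SD ranges did not meet. Meis2 was above Nr2f1 in 8 libraries and below it in 8. The medial lineage gene Lhx6 had 58.4 ± 11.4 CPM per kilobase, and each of the 9 genes was below it in 16 of 16 libraries. Gad2, the gene of a GABA-synthesising enzyme, had 46.1 ± 13.9 CPM per kilobase, and only Nr2f1 was ever above it, in 1 library. Against Sox6, another gene of the medial list (12.7 ± 2.1 CPM per kilobase), the order was mixed: Meis2 was above it in 10 of 16 libraries, Nr2f1 in 6 and Nr2f2 in 3. Against Gad1, the gene of GAD67 itself (9.16 ± 3.89 CPM per kilobase), Nr2f1 was higher in 15 of 16 libraries, Meis2 in 13 and Nr2f2 in 9. All embryos were GAD67-GFP+/-, and the part of that genotype in the Gad1 level was not tested. The order per kilobase rests on the division by merged exon length and changes without it. In CPM, Nr2f1 averaged 65.7 ± 24.8 and Gad1 70.0 ± 29.7, while Nr2f2 had 87.8 ± 38.5 (SD, n = 16). Calb2 had 8.38 ± 7.45 and Sp9 23.3 ± 15.9 CPM. The highest Meis2 library had 441 CPM, and the highest Lhx6 library 347 CPM.

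**Figure D1:**
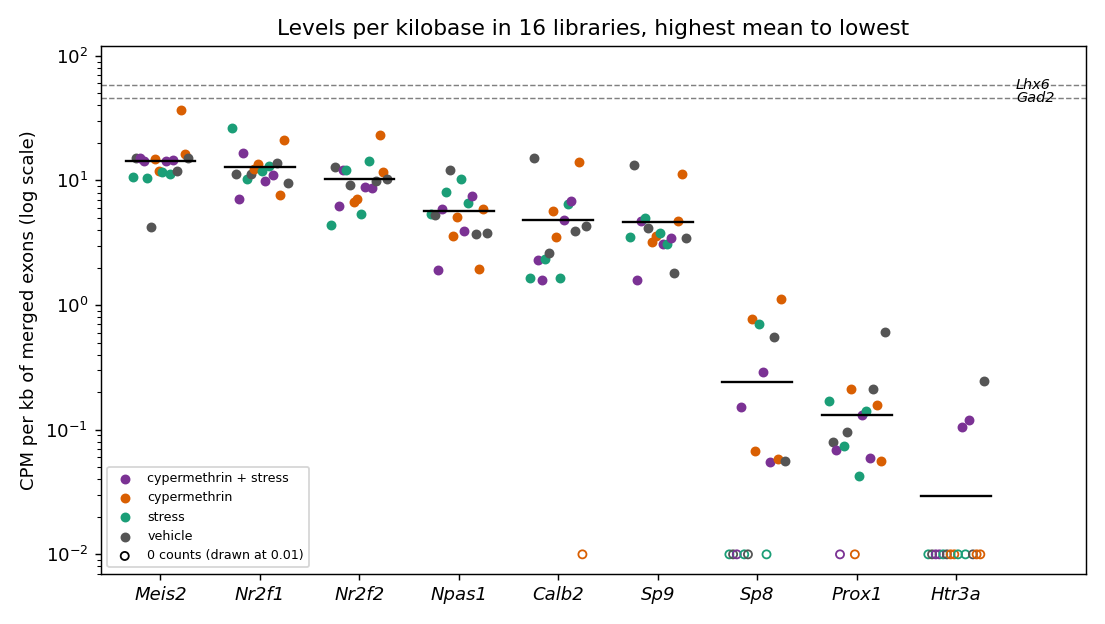
Levels of the 9 genes in CPM per kilobase of merged exons on a log axis; each point is 1 of 16 libraries coloured by group, black lines give means, dashed lines the means of Lhx6 and Gad2, and open points at the bottom are libraries with 0 counts. Meis2, Nr2f1 and Nr2f2 have the highest means (14.3, 12.9 and 10.2) and Sp8, Prox1 and Htr3a the lowest (0.24, 0.132 and 0.0295), all under Lhx6 (58.4).

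Nr2f1 and Nr2f2 encode COUP-TFI and COUP-TFII, orphan nuclear receptors that steer interneurons along the caudal migratory route. Glutamatergic markers summed to a mean of 5450 CPM in these libraries, and GABAergic markers to 623 CPM. Which of the captured cells made each gene was not tested. Nr2f1 lies on chromosome 13 from 78188973 to 78199757, minus strand, and Nr2f2 on chromosome 7 from 70351944 to 70366735, minus strand, in the mm10 build. Nr2f1 had 36.1, 84.9, 50.1 and 55.8 CPM in cypermethrin stressed libraries, 62.8, 68.5, 39.1 and 107 CPM in cypermethrin non-stressed libraries, 133, 52.3, 60.9 and 66.9 CPM in vehicle stressed libraries and 57.6, 57.4, 70.1 and 48.6 CPM in vehicle non-stressed libraries. All 4 groups overlapped, and the highest value was in the library that went against its recorded sex. Nr2f2 had 53.5, 104, 75.7 and 75.5 CPM in cypermethrin stressed libraries, 57.5, 60.8, 199 and 100 CPM in cypermethrin non-stressed libraries, 38.0, 105, 46.3 and 124 CPM in vehicle stressed libraries and 111, 79.6, 86.0 and 88.0 CPM in vehicle non-stressed libraries. These groups overlapped too, with the highest library in the cypermethrin non-stressed group and the lowest in the vehicle stressed group. The spread of both genes was smallest in vehicle non-stressed libraries, where the coefficient of variation was 15.1% for each, and largest for Nr2f2 in cypermethrin non-stressed libraries (63.1%). Over 2319 tested genes with a mean of at least 100 CPM, the median coefficient was likewise smallest in vehicle non-stressed libraries (16.1%). It was largest in cypermethrin non-stressed libraries (23.9%). Exons of each share bases with an opposite-strand gene of the table, 123 for Nr2f1 with A830082K12Rik (56.5 ± 33.7 CPM, SD, n = 16) and 643 for Nr2f2 with B130024G19Rik (7.48 ± 5.41 CPM), so both counts are uncertain where strand was not used. Their own transcripts share 10 of 5090 windows of 50 bases (0.196%).

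Prox1 and Htr3a, the homeobox gene and the ionotropic serotonin receptor subunit gene that mark caudal interneurons, were close to the limit of counting. Prox1 (chromosome 1, 190118035 to 190170714, minus strand) had 2, 0, 5 and 2 counts in cypermethrin stressed libraries, 7, 0, 5 and 1 in cypermethrin non-stressed libraries, 3, 2, 1 and 5 in vehicle stressed libraries and 2, 3, 7 and 20 in vehicle non-stressed libraries. The vehicle non-stressed group had 32 of the 65 counts, and 20 of these came from its replicate 4 alone (5.15 CPM). Pooled over 4 libraries, Prox1 came to 0.551 CPM (exact Poisson 95% interval 0.252 to 1.05) with both exposures, 0.991 (0.528 to 1.7) with cypermethrin alone, 0.891 (0.445 to 1.59) with stress alone and 2.2 (1.5 to 3.1) with vehicle alone, intervals that cover counting error only. Htr3a (chromosome 9, 48899213 to 48911099, minus strand) had 4 counts in all 16 libraries: 1 each in cypermethrin stressed replicates 3 and 4, and 2 in vehicle non-stressed replicate 4. It was at 0 in the other 13 libraries, and 0 counts over a group of 4 libraries, at an exact Poisson 95% upper limit, allow up to 0.281 CPM in the cypermethrin non-stressed and 0.299 CPM in the vehicle stressed group. The Prox1 intervals of both exposures and of vehicle alone do not meet, but they leave out the spread between embryos. DESeq2, which kept the gene, gave Prox1 a log2 difference of -1.96 ± 1.41 (SE) there, with a Benjamini-Hochberg adjusted p of 1. For Htr3a no difference between groups was detectable at this depth.

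Sp8 and Sp9 are closely related zinc finger transcription factor genes, and their captured levels differed widely. Sp8 (chromosome 12, 118846329 to 118852576, plus strand) had 0, 3, 6 and 1 counts in cypermethrin stressed libraries, 14, 1, 1 and 11 in cypermethrin non-stressed libraries, 0, 0, 9 and 0 in vehicle stressed libraries and 0, 0, 10 and 1 in vehicle non-stressed libraries. Counts thus came mostly from a few libraries, and 6 of 16 libraries had none. Pooled, Sp8 came to 0.612 CPM (exact Poisson 95% interval 0.294 to 1.13) with both exposures, 2.06 (1.36 to 3.0) with cypermethrin alone, 0.729 (0.333 to 1.38) with stress alone and 0.755 (0.377 to 1.35) with vehicle alone, again for counting error only. Of the 27 counts behind the highest of these, 25 were in 2 libraries. Sp9 (chromosome 2, 73271925 to 73284706, plus strand) had 8.09, 24.0, 15.7 and 17.4 CPM in cypermethrin stressed libraries, 16.1, 18.2, 23.9 and 57.0 CPM in cypermethrin non-stressed libraries, 17.6, 25.4, 19.2 and 15.6 CPM in vehicle stressed libraries and 67.0, 20.8, 9.08 and 17.5 CPM in vehicle non-stressed libraries. Both non-stressed groups held 1 library far above the rest, and all groups overlapped. Sp9 shares 270 exon bases with Cir1 on the opposite strand (33.8 ± 8.45 CPM, SD, n = 16), so its counts are uncertain as well, while Sp8 and Sp9 share 0 windows of 50 bases.

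Meis2 encodes a TALE homeodomain protein of lateral eminence and striatal neurons, and it was the member with the most counts. Whether neurons of that lineage made the captured Meis2 RNA was not tested. On chromosome 2 from 115863064 to 116065839, minus strand, it overlaps no other gene of the table. It had 182, 172, 172 and 175 CPM in cypermethrin stressed libraries, 178, 143, 441 and 197 CPM in cypermethrin non-stressed libraries, 129, 127, 140 and 135 CPM in vehicle stressed libraries and 184, 50.7, 142 and 181 CPM in vehicle non-stressed libraries. The 4 cypermethrin stressed libraries all stood above the 4 vehicle stressed ones, while both non-stressed groups spread widely around them. The highest library, cypermethrin non-stressed replicate 3, also had the highest sums of all 16 libraries for 4 marker lists. These were macrophage (440 CPM), endothelial (496 CPM), meningeal and pericyte (4010 CPM) and Cajal-Retzius markers (3520 CPM). That library also had the highest Nr2f2 level of all. Over 16 libraries the Pearson r of Meis2 with these lists was 0.212, 0.346, 0.421 and 0.159, in that order. None passed (permutation, adjusted p of at least 0.534). The part of these cells in the Meis2 result was not tested beyond these correlations.

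Npas1 encodes a bHLH-PAS transcription factor of medial and caudal eminence interneurons, and lies on chromosome 7 from 16455721 to 16477728, minus strand. It had 5.78, 17.8, 11.9 and 22.4 CPM in cypermethrin stressed libraries, 10.8, 15.4, 5.85 and 17.7 CPM in cypermethrin non-stressed libraries, 16.2, 24.1, 30.6 and 19.8 CPM in vehicle stressed libraries and 15.8, 36.3, 11.1 and 11.3 CPM in vehicle non-stressed libraries. The groups overlapped. The library with the highest Npas1, vehicle non-stressed replicate 2, was the one with the lowest Meis2. Calb2 encodes calretinin, a calcium-binding protein of some caudal interneurons that Cajal-Retzius cells also make, and lies on chromosome 8 from 110137502 to 110168210, minus strand. It had 4.04, 2.77, 8.39 and 12.0 CPM in cypermethrin stressed libraries, 9.84, 6.17, 24.7 and 0 CPM in cypermethrin non-stressed libraries, 2.85, 4.07, 2.85 and 11.3 CPM in vehicle stressed libraries and 26.3, 4.54, 6.81 and 7.46 CPM in vehicle non-stressed libraries. Its range within the cypermethrin non-stressed group took in every other library but 1, vehicle non-stressed replicate 1.

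**Figure D2:**
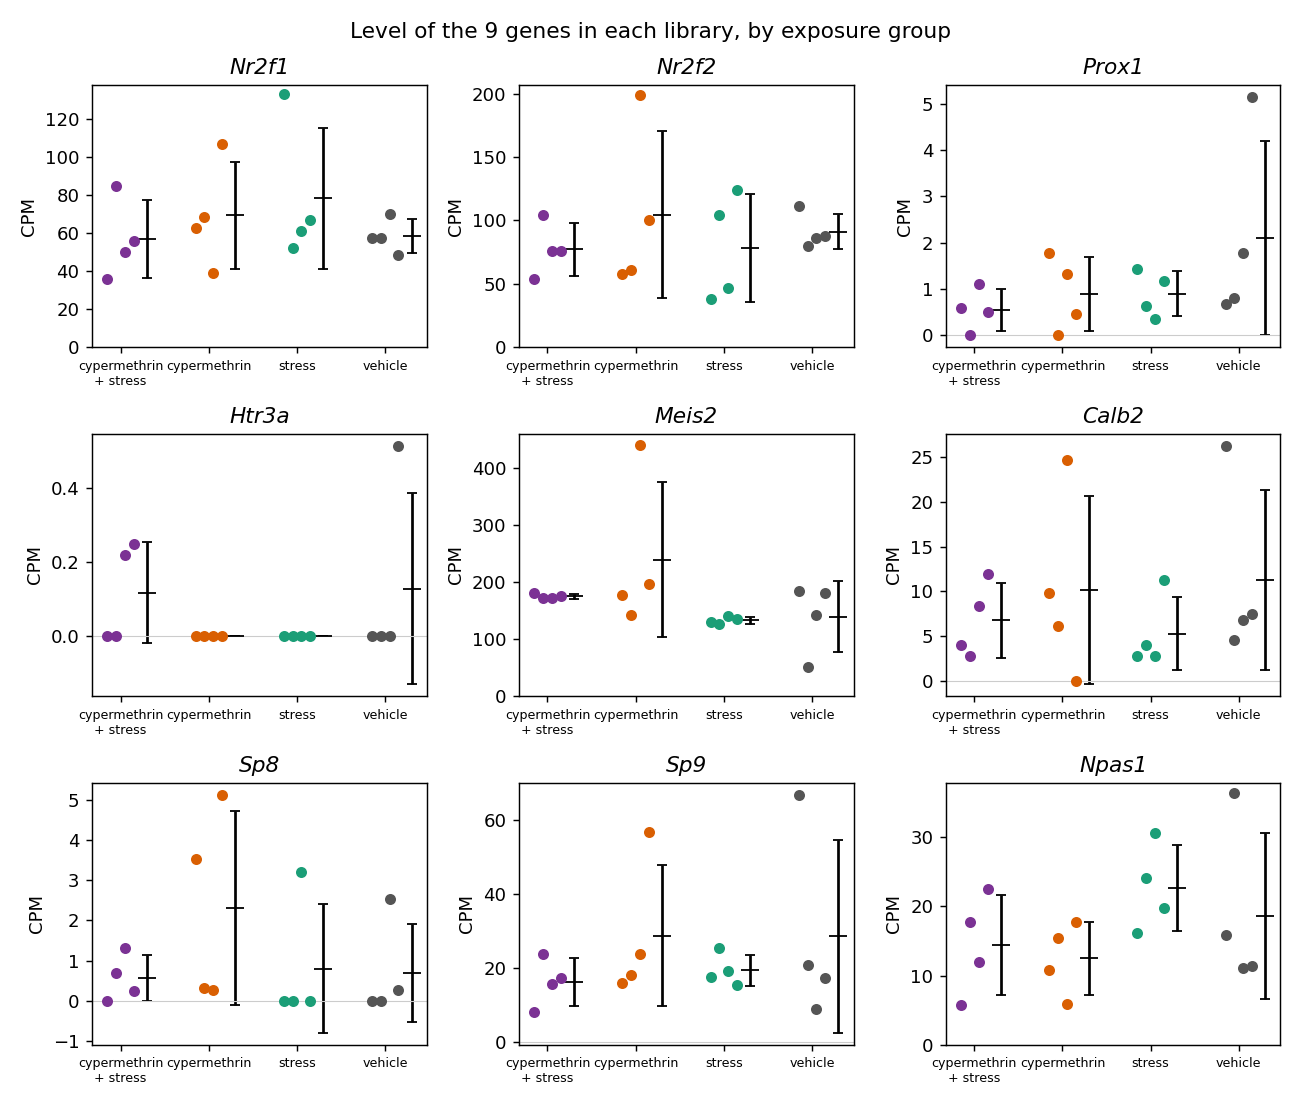
Level of each of the 9 genes in CPM, 1 panel per gene on its own linear axis, for the 4 groups; each point is 1 embryo and bars give the group mean and SD (n = 4). The groups overlap in nearly all panels, and the 4 cypermethrin stressed libraries of Meis2 (172 to 182 CPM) stand above the 4 vehicle stressed ones (127 to 140 CPM).

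Cypermethrin alone was set against vehicle alone for the effect of the insecticide, and none of the 6 tested genes passed. Of the 6, 4 were fitted higher and 2 lower with cypermethrin, and the median log2 difference was 0.10, against 0.028 over all 13224 tested genes. Meis2 had the largest difference, with 240 ± 136 CPM in cypermethrin non-stressed and 139 ± 62.0 CPM in vehicle non-stressed libraries (SD, n = 4 each), a log2 difference of 0.78 ± 0.32 (SE). Its edgeR quasi-likelihood p was 0.0193 before and 0.999 after Benjamini-Hochberg adjustment, and without cypermethrin non-stressed replicate 3 the difference was 0.31. The differences of the 2 nuclear receptor genes, 0.24 ± 0.36 for Nr2f1 and 0.20 ± 0.38 for Nr2f2, were smaller than their errors, as was that of Sp9 (0.0072 ± 0.57). Without cypermethrin non-stressed replicate 4 the difference of Nr2f1 was -0.037, and without replicate 3 that of Nr2f2 was -0.32. Npas1 (-0.59 ± 0.59, and -0.038 without vehicle non-stressed replicate 2) and Calb2 (-0.13 ± 0.94) were fitted lower. By edgeR 0 of 6 passed at an adjusted p under 0.05, as did 0% of all tested genes, and 1 of 6 had an unadjusted p under 0.05, against 3.71% of all tested genes. DESeq2 likewise called 0 of the 9, with 1 at an unadjusted p under 0.05 (4.37% of all genes it tested), and 0 of the 6 genes had ranges that did not overlap, against 2.52% of all tested genes.

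Stress alone was set against vehicle alone for the effect of restraint, and again none of the 6 passed. Of these, 2 were fitted higher and 4 lower with stress, with a median of -0.14 against 0.0088 over all tested genes. Calb2 had the largest difference, -1.07 ± 0.96, with 5.27 ± 4.07 CPM in vehicle stressed and 11.3 ± 10.1 CPM in vehicle non-stressed libraries, and without vehicle non-stressed replicate 1 it was -0.23. Sp9 had -0.55 ± 0.57, and without that same library 0.30. Nr2f1 was at 0.42 ± 0.36, with 78.3 ± 37.1 CPM in vehicle stressed and 58.4 ± 8.85 CPM in vehicle non-stressed libraries, and at 0.042 without the library that went against its recorded sex. Npas1 (0.28 ± 0.58), Nr2f2 (-0.21 ± 0.38) and Meis2 (-0.069 ± 0.31) had differences below their errors. EdgeR and DESeq2 both called 0 members (0% of all genes in each), and 0 had an unadjusted p under 0.05 by either, against 5.08% of all genes by edgeR and 5.59% by DESeq2. No member had ranges apart, against 2.9% of all tested genes.

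Embryos with both exposures were set against those with vehicle alone for the joint effect. Only Meis2 was fitted higher, at 0.33 ± 0.31, with 175 ± 4.53 CPM in cypermethrin stressed and 139 ± 62.0 CPM in vehicle non-stressed libraries (SD, n = 4 each), and without vehicle non-stressed replicate 2 it was at 0.054. Sp9 had -0.80 ± 0.57 (0.046 without vehicle non-stressed replicate 1), Calb2 -0.72 ± 0.94 (0.12 without the same library) and Npas1 -0.36 ± 0.58. Nr2f2 (-0.24 ± 0.38) and Nr2f1 (-0.042 ± 0.36) lay within their errors of 0. The median of the 6 was -0.30, against 0.0031 over all tested genes. EdgeR and DESeq2 passed 0 members (0% of all genes in each), and before adjustment 0 were under 0.05, against 1.49% and 2.05% of all genes, and 0 had ranges apart, against 2.62%.

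Averaging over the other exposure used 8 libraries against 8 and narrowed the errors. For cypermethrin averaged over stress, Meis2 had a log2 difference of 0.59 ± 0.22, with an edgeR quasi-likelihood p of 0.0129 and a Benjamini-Hochberg adjusted p of 0.981. Its difference of mean log2 CPM was 0.433 and 0.67 within the 2 library codes, and leaving out 1 library at a time gave fitted differences between 0.36 (without cypermethrin non-stressed replicate 3) and 0.68. Npas1 ran lower, at -0.62 ± 0.41, with -0.253 and -1.01 within the codes and -0.34 without vehicle non-stressed replicate 2. Nr2f1 (-0.11 ± 0.25), Nr2f2 (0.086 ± 0.27), Sp9 (-0.12 ± 0.40) and Calb2 (0.11 ± 0.67) were all within their errors of 0, 3 members were fitted higher and 3 lower, and the median was -0.012, against 0.0087 over all tested genes. EdgeR called 0 members (0% of all genes) and 1 of 6 had an unadjusted p under 0.05 (4.59% of all genes). DESeq2 called 0 members and 0.0109% of all genes, with 1 member at an unadjusted p under 0.05 against 4.87% of all genes, and 0 members had ranges apart, against 0.0302%.

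For stress averaged over cypermethrin, Calb2 had -0.83 ± 0.67, Sp9 -0.68 ± 0.41, Nr2f2 -0.32 ± 0.27 and Meis2 -0.26 ± 0.22, while Npas1 had 0.25 ± 0.41 and Nr2f1 0.067 ± 0.25. The size of the Sp9 difference depended on vehicle non-stressed replicate 1, without which it was -0.26, and those of Nr2f2, Meis2 and Calb2 were -0.064, -0.023 and -0.37 without cypermethrin non-stressed replicate 3. The median was -0.29, against -0.00051 over all tested genes. By edgeR and DESeq2 0 members passed (0% of all genes in each), and 0 had an unadjusted p under 0.05 against 5.13% and 5.29% of all genes, nor did any have ranges apart (0% of all genes).

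The interaction asked whether the difference made by cypermethrin depended on stress. Nr2f1 had the largest value, -0.70 ± 0.51: its mean was lower with both exposures (56.7 ± 20.5 CPM) than with stress alone (78.3 ± 37.1 CPM) and higher with cypermethrin alone (69.3 ± 28.1 CPM) than with vehicle alone (58.4 ± 8.85 CPM). Without the library that went against its recorded sex the value was -0.33. Meis2 had -0.38 ± 0.44, Sp9 -0.26 ± 0.81, Nr2f2 -0.22 ± 0.54, Npas1 -0.060 ± 0.83 and Calb2 0.48 ± 1.34. By edgeR and DESeq2 0 members passed (0% of all genes in each), and 0 had an unadjusted p under 0.05, against 4.7% and 5.21% of all genes.

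A pair of comparisons was added after the values had been seen. Between cypermethrin stressed and vehicle stressed libraries, Meis2 had 175 ± 4.53 CPM and 133 ± 6.11 CPM (SD, n = 4 each), and its ranges, 172 to 182 CPM in cypermethrin stressed and 127 to 140 CPM in vehicle stressed libraries, did not overlap. The log2 difference was 0.40 ± 0.31, with an edgeR quasi-likelihood p of 0.213 and a Benjamini-Hochberg adjusted p of 0.957, the error coming from the spread of all 4 groups. It was between 0.37 and 0.42 whichever library was left out. Ranges were apart for 1 of 6 members, against 3.04% of all tested genes. Npas1 had -0.65 ± 0.58, with 14.5 ± 7.22 CPM in cypermethrin stressed and 22.7 ± 6.22 CPM in vehicle stressed libraries, and Nr2f1 had -0.46 ± 0.36, or -0.084 without the library that went against its recorded sex. Calb2 (0.35 ± 0.95), Sp9 (-0.25 ± 0.57) and Nr2f2 (-0.024 ± 0.38) were within their errors of 0. EdgeR and DESeq2 passed 0 members (0% of all genes in each), and before adjustment 0 were under 0.05, against 5.39% and 5.74% of all genes.

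Between cypermethrin stressed and cypermethrin non-stressed libraries, 5 of the 6 were fitted lower with both exposures. Sp9 had -0.81 ± 0.57, and -0.26 without cypermethrin non-stressed replicate 4. Calb2 had -0.59 ± 0.94, Meis2 -0.45 ± 0.31, Nr2f2 -0.43 ± 0.38 and Nr2f1 -0.28 ± 0.36, while Npas1 had 0.22 ± 0.59. Without cypermethrin non-stressed replicate 3 those of Calb2, Meis2 and Nr2f2 were 0.32, 0.018 and 0.082, so the lower fit of these 3 genes rested on that library. EdgeR and DESeq2 passed 0 members (0% of all genes in each), and before adjustment 0 were under 0.05, against 4.31% and 4.83% of all genes, and 0 had ranges apart, against 2.58%. These comparisons share libraries with each other. The median error of a log2 difference between a pair of groups was 0.48 over the 6 genes and 0.54 over all tested genes, and that of Calb2 was near 1, so a p above the threshold does not show that groups were alike.

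**Figure D3:**
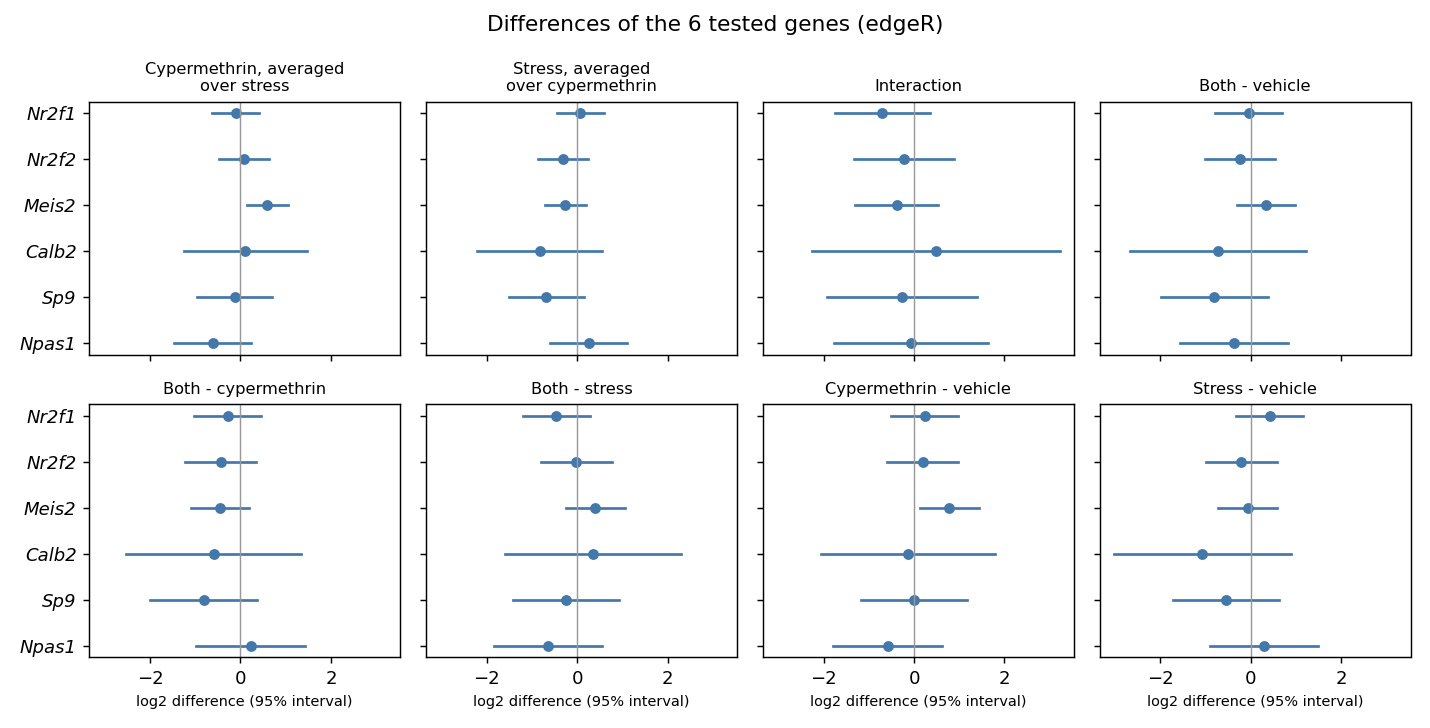
Log2 differences of the 6 tested genes in the comparisons, first group minus second; points are edgeR estimates and bars their 95% intervals. Only the Meis2 intervals of cypermethrin without stress (0.14 to 1.43) and of cypermethrin averaged over stress (0.14 to 1.05) leave out 0, before adjustment for the number of genes tested.

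From library to library, Meis2 and Npas1 ran in opposite directions. Over 16 libraries their log2 CPM had a Pearson r of -0.72 (permutation p = 0.0014, Benjamini-Hochberg adjusted over 15 pairs 0.021) and a Spearman rho of -0.638 (permutation p = 0.00937, adjusted 0.141). It was -0.717 and -0.76 within the 2 library codes and -0.673 over deviations from the group means. Without the 2 libraries farthest from the median of Npas1 it was -0.64, and without the 2 farthest from the median of Meis2 it was -0.429. Leaving out vehicle non-stressed replicate 2 gave -0.632 (permutation, adjusted p = 0.135) and leaving out cypermethrin non-stressed replicate 3 gave -0.606 (permutation, adjusted p = 0.354), so the call rested on each of these libraries. No other pair passed, and Nr2f1 with Calb2 came next (r = -0.569, permutation p = 0.0243, adjusted 0.182). Nr2f1 and Nr2f2, which act on the same migratory route, had an r of -0.30 (permutation p = 0.26, adjusted 0.385). Without the library that went against its recorded sex their r was -0.0031. Without the 2 libraries farthest from the median of Nr2f2 it was 0.369.

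The start regions of Meis2 and Npas1 are printed because they are the only pair of members past that threshold. Each is 300 bases around 1 start of RefSeq (GRCm38.p6, the build of mm10), read 5′ to 3′ on the minus strand, and lies at chr2:116064570-116064869 for Meis2 and at chr7:16476731-16477030 for Npas1. Capitals mark a GC box.
Meis2: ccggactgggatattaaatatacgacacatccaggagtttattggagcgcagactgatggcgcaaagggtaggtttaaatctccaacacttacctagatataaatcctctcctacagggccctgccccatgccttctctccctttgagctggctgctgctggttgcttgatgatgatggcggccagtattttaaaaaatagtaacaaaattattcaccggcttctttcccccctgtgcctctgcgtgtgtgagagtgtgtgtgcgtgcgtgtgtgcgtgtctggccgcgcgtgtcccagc
Npas1: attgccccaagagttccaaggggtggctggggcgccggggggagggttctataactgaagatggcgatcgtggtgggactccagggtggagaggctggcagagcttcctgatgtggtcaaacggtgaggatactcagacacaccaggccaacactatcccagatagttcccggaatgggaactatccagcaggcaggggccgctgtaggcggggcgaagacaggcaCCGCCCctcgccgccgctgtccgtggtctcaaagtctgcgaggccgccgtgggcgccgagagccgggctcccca
The windows were searched on both strands for TGACAG (bound by Meis proteins), AGGTCA (the half-site of nuclear receptors such as those of Nr2f1 and Nr2f2) and GGGCGG (the GC box bound by Sp proteins), words that do not overlap each other. The Npas1 window held 1 GC box, on the opposite strand at -24 from the start, and the Meis2 window held none of the 3 words. Of 11 windows for the 7 members with an entry, 1 held TGACAG, 1 held AGGTCA and 6 held GGGCGG, against 19.2%, 16.3% and 35.7% of all 32851 windows. The G and C share was 51.0% for Meis2 and 64.3% for Npas1, against a median of 52.7% over all windows. A match of these letters is a description of the window only.

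**Figure D4:**
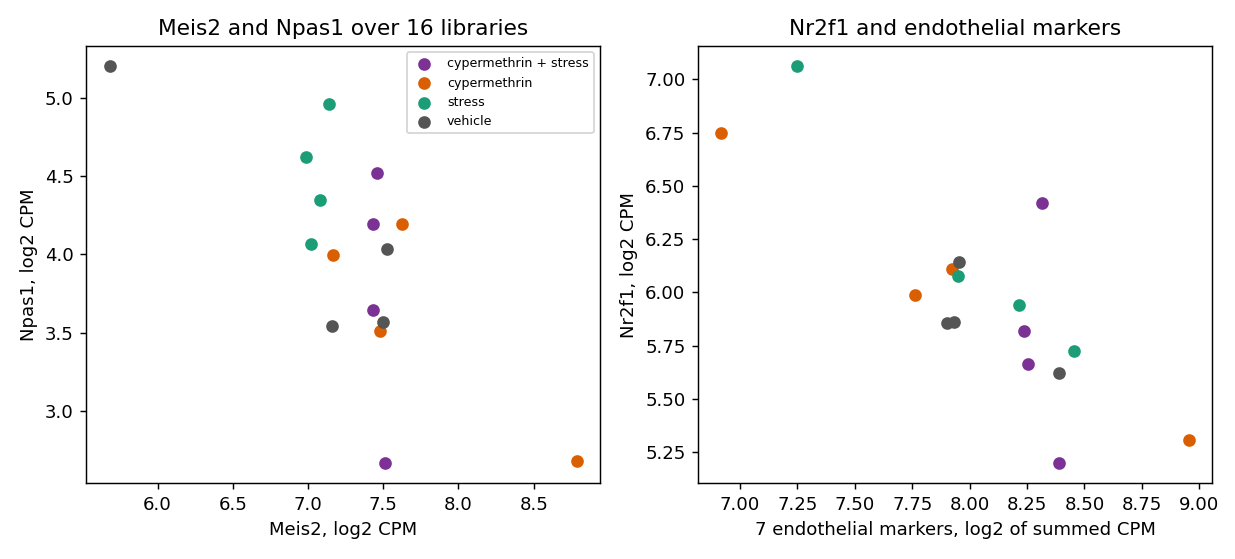
Left, Meis2 against Npas1, and right, Nr2f1 against the summed endothelial markers, in log2 CPM over 16 libraries coloured by group. Both slope downward (Pearson r = -0.72 and -0.822), with cypermethrin non-stressed replicate 3 and vehicle non-stressed replicate 2 at the ends of the Meis2 axis.

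Markers of 8 cell classes, GABAergic neurons among them, were set against the 6 genes, 48 pairs in all. This was done since several members are also made outside the interneuron lineage. Nr2f1 was lower in libraries with more endothelial RNA: against the sum of 7 endothelial markers it had a Pearson r of -0.822 (permutation p = 0.00025, adjusted 0.012) and a Spearman rho of -0.732 (permutation p = 0.002, adjusted 0.096). It was -0.977 and -0.716 within the library codes, -0.828 over deviations from the group means and -0.75 without the 2 libraries farthest from the median of the endothelial sum, and -0.617 without the 2 farthest from the median of Nr2f1. Without the library that went against its recorded sex r was -0.776 (permutation, adjusted p = 0.0581), and without cypermethrin non-stressed replicate 4 it was -0.784 (permutation, adjusted p = 0.0725). These are the 2 libraries with the highest Nr2f1, and they had the lowest endothelial sums, 121 CPM in the cypermethrin and 152 CPM in the vehicle library. They also had the highest glutamatergic sums, 6540 CPM in the cypermethrin and 7480 CPM in the vehicle library. Against the glutamatergic markers Nr2f1 had a Pearson r of 0.449 (permutation p = 0.0814, adjusted 0.534). Leaving out 1 library at a time gave 0.131 to 0.681, the lowest without the library that went against its recorded sex. The endothelial sum was 302 to 335 CPM in cypermethrin stressed, 121 to 496 CPM in cypermethrin non-stressed, 152 to 351 CPM in vehicle stressed and 239 to 335 CPM in vehicle non-stressed libraries. All 7 markers were tested, and the highest were Cdh5 (79.6 CPM) and Kdr (62.6 CPM), genes of endothelial junctions and of the VEGF receptor.

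Nr2f2 is also made by venous endothelium and by cells of the meninges. It had an r of 0.578 with the Cajal-Retzius markers (permutation p = 0.019, adjusted 0.343) and of 0.512 with the meningeal and pericyte markers (permutation p = 0.0421, adjusted 0.506). With the endothelial markers it had 0.395 (permutation p = 0.129, adjusted 0.58). None of these passed. Without the 2 libraries with the most extreme sums of each list, r was 0.393, 0.0935 and 0.416, in that order. Without the 2 farthest from the median of Nr2f2 it was 0.532, 0.0935 and -0.165. Calb2 had an r of 0.587 with the endothelial markers (permutation p = 0.0215, adjusted 0.343), which was -0.0482 without the 2 farthest libraries, and of 0.19 with those of Cajal-Retzius cells. The leading Cajal-Retzius markers were Reln (2260 CPM), which some interneurons also make, and Nhlh2 (152 CPM). The leading meningeal and pericyte markers were Igf2 (558 CPM) and Col3a1 (466 CPM). For the GABAergic list, led by Gad2 (271 CPM) and Dlx6os1 (119 CPM), r ran from -0.36 for Calb2 to 0.32 for Sp9. Neither passed (permutation p = 0.17 for Calb2 and 0.225 for Sp9, adjusted 0.58 for each). Both changed sign without the 2 libraries farthest from the median of the GABAergic sum, to 0.46 for Calb2 and -0.0775 for Sp9. The part of other cells in the levels of the 9 genes was not tested beyond these correlations.

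**Figure D5:**
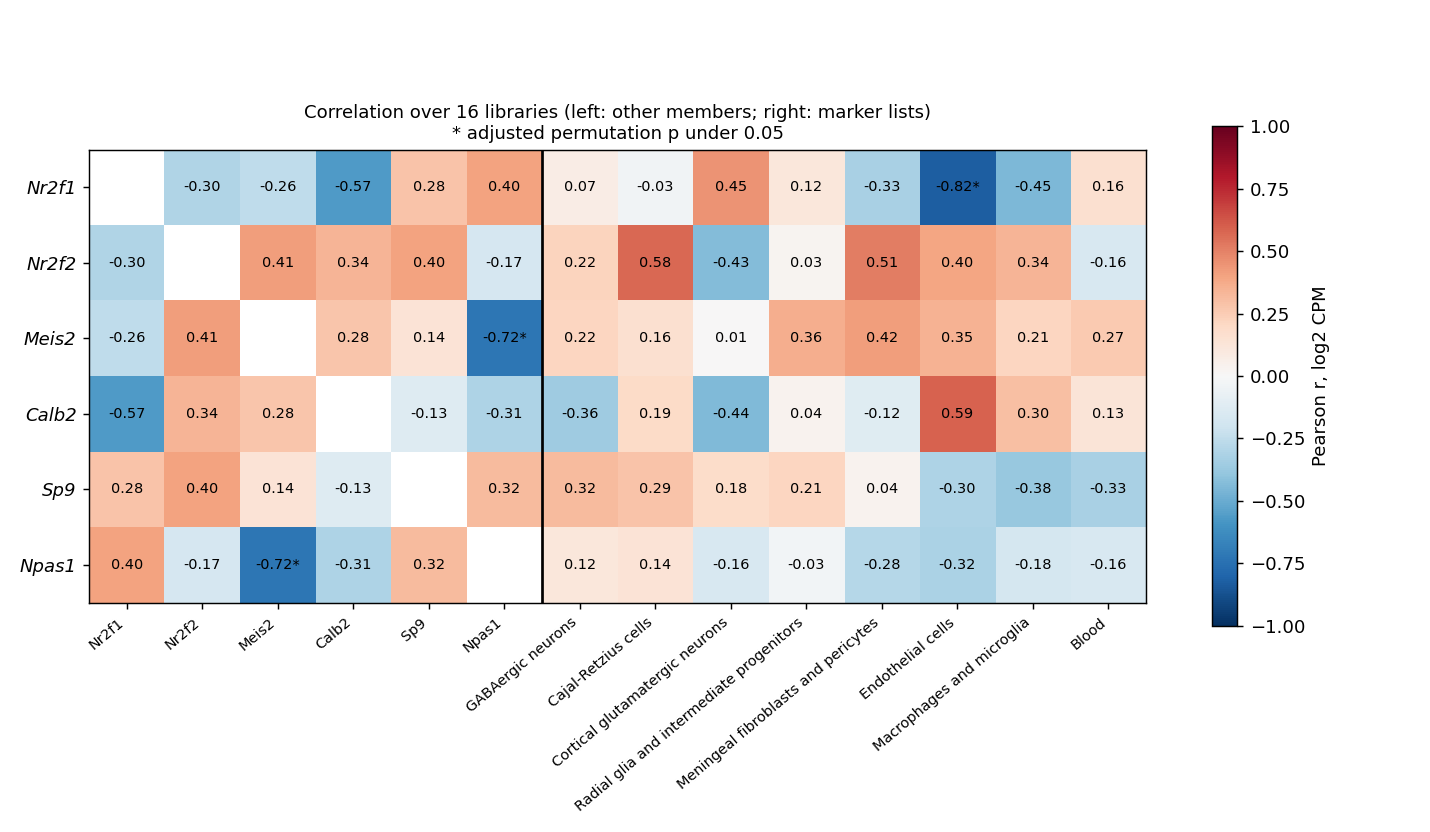
Pearson r of log2 CPM over 16 libraries for each of the 6 tested genes (down) with each other and with the summed CPM of 8 marker lists (across); an asterisk marks an adjusted permutation p under 0.05. The asterisks fall on Meis2 with Npas1 (-0.72) and on Nr2f1 with the endothelial markers (-0.82).

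Among the other genes of the caudal lineage, mean levels ran from near 0 to 3500 CPM. Of 13 listed, 9 were tested. Vip, the neuropeptide of a bipolar subtype, had 1 count in all libraries, Scgn, which encodes secretagogin, had 19, and Sncg, a synuclein gene, had 7. Other subtype genes of the list were detected, with 691 ± 156 CPM for Cnr1, the cannabinoid receptor gene, 72.3 ± 31.7 CPM for Ndnf, which Cajal-Retzius cells also make, 5.03 ± 5.33 CPM for the chemokine gene Cxcl14 and 2.83 ± 5.89 CPM for Lamp5 (SD, n = 16), while the neuropeptide gene Cck had a mean of 16.5 CPM over a range of 0 to 70.8 CPM. Lamp5 was at 0 in 6 of 16 libraries. Which captured cells made Cnr1 and the other genes of this list was not tested. The highest were Nfib (3500 ± 386 CPM, SD, n = 16) and Nfix (959 ± 307 CPM), nuclear factor I genes that many neural cells make. With cypermethrin alone against vehicle alone 5 of the 9 were fitted higher and 4 lower (median log2 difference 0.10, against 0.028 over all tested genes), with stress alone 5 and 4 (0.019, against 0.0088), and with both exposures 7 and 2 (0.16, against 0.0031). By edgeR 0 passed in each, and 2, 2 and 0 of the 9 were under 0.05 before adjustment, against 3.71%, 5.08% and 1.49% of all tested genes.

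Of 18 genes of the lateral eminence and its descendants, 14 were tested, and the progenitor genes were not found. Gsx1, Gsx2 and Isl1, transcription factor genes of eminence progenitors and of early striatal neurons, had 0 counts in 16 of 16 libraries, and Six3 had 14 counts, in 1 library. Foxp1, a forkhead gene of striatal and cortical projection neurons, had 160 ± 34.4 CPM and Etv1, an ETS factor gene, 35.7 ± 39.8 CPM (SD, n = 16). The other tested genes of the list were detected too, with means from 1.58 CPM for Penk to 33.8 CPM for Foxp2. With cypermethrin alone 8 of the 14 were fitted higher and 6 lower (median 0.078, against 0.028 over all tested genes), with stress alone 4 and 10 (median -0.57, against 0.0088 over all tested genes), and with both exposures 6 and 8 (median -0.094, against 0.0031). By edgeR 0 passed in each, and 3, 1 and 0 of the 14 were under 0.05 before adjustment, where the shares over all tested genes were 3.71%, 5.08% and 1.49%.

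Of 12 genes of the medial lineage, 10 were tested. Zeb2, which directs interneurons to the cortex and is made by other cells too, had 2690 ± 324 CPM and Satb1, a chromatin organiser of maturing interneurons, 368 ± 82.3 CPM (SD, n = 16). With cypermethrin alone, with stress alone and with both exposures 6 of the 10 were fitted higher and 4 lower each time (medians 0.13, 0.095 and 0.016, beside 0.028, 0.0088 and 0.0031 over all tested genes). By edgeR 0 passed, and 1, 1 and 0 of the 10 were under 0.05 before adjustment, beside 3.71%, 5.08% and 1.49% of all tested genes. DESeq2 also called 0 of all genes in these comparisons.

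The genes whose levels followed each member most closely over the 16 libraries were found by Spearman rho among tested genes with a mean of at least 10 CPM. For Nr2f1 they were Rab28 (0.859) and B3gat3 (0.8), for Nr2f2 Adamts9 (0.882) and Tspyl5 (0.876), for Meis2 Pfkfb2 (0.885) and Vcan (0.874), for Calb2 Mlh3 (0.888) and Itga8 (0.853), for Sp9 Rpl13a (0.879), and for Npas1 Mex3c (0.891) and Farsa (0.785). These are the extremes of 9446 or 9447 genes. The hundredth in each order still had a rho of about 0.6, between 0.597 for Npas1 and 0.647 for Calb2.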

How the data were processed

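RNA of about 1000 laser-captured GFP-positive cells per embryo was made into libraries with a low-input kit, per the labels. Raw counts of reads per gene, without normalization, were deposited by the authors in 1 table. The aligner STAR 2.5 and the build mm10 are named in the submitters' processing notes, whereas the counter, annotation, strand setting and filters were not given in the sources used here. All 9 genes, the gene lists and the tests were chosen with earlier results of these data known.

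Samples were grouped by the exposures in their labels, 4 embryos of separate litters per group. EdgeR 4.0.16 in R 4.3.3 fitted all 16 libraries with TMM scaling and a quasi-likelihood test, after filterByExpr with a count minimum of 10 (13224 of 24539 genes kept). Standard errors came from the F statistic, and p-values were Benjamini-Hochberg adjusted over all tested genes, with a threshold of 0.05. The added comparisons were cypermethrin stressed against vehicle stressed and against cypermethrin non-stressed. Alternatives were DESeq2 1.42.0, other size factors, no filter, a term for the code in the library descriptions (9 and 7 libraries), and each library left out. Correlations were taken on log2 CPM (prior count 2), with 100000 permutations. The fits were tested on simulated data. Positions and exon lengths come from GENCODE vM21, where 23887 symbols matched, and start regions from RefSeq. Genes named were the 9, the 2 most alike by Spearman rho (1 for Sp9, as the other is not reported here) and the 2 highest of each list, clone and locus models left out, and list genes named for having few or no counts or as detected subtype genes, Lhx6, Sox6, Xist and overlapping genes were chosen after their values were seen. The leading genes of the remaining lists were Neurod6 (1320 CPM) and Sox5 (1270 CPM) for glutamatergic neurons, Nes (393) and Vim (246) for radial glia, Mrc1 (68.3) and Csf1r (30.0) for macrophages and Hbb-y (92.9) and Alas2 (35.2) for blood. Precision at these depths covers counting error only in the intervals given.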

Additional observations from a re-analysis of the deposited data

Results flagged for a closer look

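In a group of 4 libraries, a library was picked out when its gap to the nearest of the others exceeded 0.829 of the group's range. Of 34 groups of 4 with any spread among the 9 genes, 5 held such a library, where chance picks out about 1 in 20 groups of normally distributed values. Sparse counts do not follow that rate: with 3 libraries at 0 and 1 above it, as for Htr3a and for Sp8 in the vehicle stressed group, the gap is the whole range by construction. All 5 were the highest library of a vehicle group, in Htr3a, Sp8 or Calb2. Htr3a had 0.515 CPM in vehicle non-stressed replicate 4 and 0 in the rest of that group. Sp8 had 3.21 CPM in vehicle stressed replicate 3, with the rest of that group at 0, and 2.52 CPM in vehicle non-stressed replicate 3, with the next library at 0.257 CPM. Calb2 had 11.3 CPM in vehicle stressed replicate 4, with the next library at 4.07 CPM, and 26.3 CPM in vehicle non-stressed replicate 1, with the next at 7.46 CPM.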

How the results depend on the processing

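None of the 48 member differences (6 genes, 8 comparisons) passed under any alternative, so what could change was the sign. Leaving out 1 of the 16 libraries at a time turned the sign of 27, none of them Meis2 in the comparisons where its unadjusted p was under 0.05, and their fitted log2 differences then ran over the ranges that follow. For cypermethrin alone against vehicle alone they were Nr2f1 -0.037 to 0.45, Nr2f2 -0.32 to 0.40, Calb2 -1.04 to 0.71 and Sp9 -0.55 to 0.86. For stress alone against vehicle alone they were Nr2f2 -0.52 to 0.014, Meis2 -0.35 to 0.098 and Sp9 -0.85 to 0.30. For both exposures against vehicle alone they were Nr2f1 -0.31 to 0.12, Calb2 -1.14 to 0.12, Sp9 -1.10 to 0.046 and Npas1 -0.65 to 0.18. For cypermethrin averaged over stress they were Nr2f1 -0.25 to 0.082, Nr2f2 -0.17 to 0.24, Calb2 -0.35 to 0.53 and Sp9 -0.40 to 0.30. For stress averaged over cypermethrin the range was Nr2f1 -0.12 to 0.21. For the interaction they were Nr2f2 -0.45 to 0.29, Meis2 -0.56 to 0.082, Calb2 -0.36 to 1.38, Sp9 -1.12 to 0.29 and Npas1 -0.61 to 0.20. For both exposures against stress alone they were Nr2f2 -0.25 to 0.29 and Calb2 -0.070 to 1.04. For both exposures against cypermethrin alone they were Nr2f2 -0.64 to 0.082, Meis2 -0.63 to 0.018, Calb2 -1.01 to 0.32 and Npas1 -0.066 to 0.48. Under the 4 other alternatives 1 difference changed sign: Sp9 in cypermethrin alone against vehicle alone was at -0.0024 with no count filter. Over all genes, DESeq2 called 2 for cypermethrin averaged over stress where edgeR called 0. With 1 library left out edgeR called 0 to 1 there and for both exposures against stress alone, the 1 in each case without vehicle stressed replicate 3. The count of member pairs called by correlation ran from 0 to 1 with 1 library left out, being 0 without vehicle non-stressed replicate 2 or cypermethrin non-stressed replicate 3. That of member and marker pairs ran from 0 to 1, being 0 without vehicle stressed replicate 1 or cypermethrin non-stressed replicate 4. The cause of these changes was not tested. No paired analysis was possible because the labels give no replicate numbers, and those used here follow accession order. Depth limits Prox1, Htr3a and Sp8 most, with 65, 4 and 57 counts over 16 libraries.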

Other observations

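Meis2 varied far less among the stressed embryos than among the non-stressed ones, a pattern noticed in the values and not tested. Its coefficient of variation was 2.58% over the 4 cypermethrin stressed and 4.6% over the 4 vehicle stressed libraries, against 56.8% over the cypermethrin non-stressed and 44.5% over the vehicle non-stressed libraries. Counting alone would give about 3.75% in cypermethrin stressed and 5.11% in vehicle stressed libraries at these depths. Over 2319 tested genes with a mean of at least 100 CPM the median coefficient of variation was 16.7% in cypermethrin stressed, 23.9% in cypermethrin non-stressed, 21.8% in vehicle stressed and 16.1% in vehicle non-stressed libraries. The wide spread of the non-stressed groups came mainly from 1 library in each, at 441 CPM in the cypermethrin and 50.7 CPM in the vehicle group.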
